A study of Mus musculus with 4 samples.

Results

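The carboxylesterase genes of mouse liver were compared between livers with and without the RNA-editing enzyme ADAR2 after a high-fat diet (HFD). The members are 10 genes chosen by name (Ces1b, Ces1c, Ces1d, Ces1e, Ces1f, Ces1g, Ces2a, Ces2e, Ces3a and Ces3b) among the 19 genes of the table whose symbol starts with Ces and a digit, and among 25655 genes in all. The rule names the genes and uses no measured value, although it was set with earlier results of these data known, and all 10 passed the filter on low counts. Liver RNA was sequenced from male mice on a B6129S background that were fed the HFD from 5 weeks of age for 12 weeks, in 2 HFD-WT libraries (ADAR2+/+/GluR-B R/R) and 2 HFD-KO libraries (ADAR2-/-/GluR-B R/R). The GluR-B R/R allele was shared by both genotypes, the ADAR2 deletion was inherited and not limited to hepatocytes, and livers of mice on a normal diet are not analysed here. The paper gives more mice per genotype for its gene set analysis than there are libraries, and how many of them stand behind each library is not given in the sources used here, so the p values measure only the spread between these libraries, which may be technical.

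Carboxylesterases are serine hydrolases of the endoplasmic reticulum and the plasma that cleave esters, amides and thioesters. In liver they hydrolyse drugs and other foreign esters, and several also cleave neutral lipids, which places them between lipid droplets and the assembly of very low density lipoprotein (VLDL). In the mouse the family has been duplicated into clusters of similar neighbouring genes. All 10 members lie on chromosome 8 in the GRCm39 positions of the table: the 6 Ces1 genes on the minus strand from 93783356 to 94063936, and the 2 Ces2 and 2 Ces3 genes on the plus strand from 105460635 to 105820561.

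The coding sequences show what the members share and where they part. The stretch around the catalytic serine is given for each, from the C57BL/6J reference transcripts of GENCODE M21, with the 6 codons of the serine motif in capitals.
Ces1b: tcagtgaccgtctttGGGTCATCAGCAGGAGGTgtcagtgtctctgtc
Ces1c: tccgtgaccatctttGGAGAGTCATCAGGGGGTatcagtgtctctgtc
Ces1d: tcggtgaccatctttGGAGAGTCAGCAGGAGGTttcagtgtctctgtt
Ces1e: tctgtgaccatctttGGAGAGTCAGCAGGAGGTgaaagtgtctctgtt
Ces1f: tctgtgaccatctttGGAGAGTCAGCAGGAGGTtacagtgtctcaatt
Ces1g: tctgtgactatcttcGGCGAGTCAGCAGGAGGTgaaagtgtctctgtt
Ces2a: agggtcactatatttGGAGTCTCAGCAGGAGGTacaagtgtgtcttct
Ces2e: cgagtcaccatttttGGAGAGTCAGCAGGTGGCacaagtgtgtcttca
Ces3a: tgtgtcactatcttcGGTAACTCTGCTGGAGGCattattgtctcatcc
Ces3b: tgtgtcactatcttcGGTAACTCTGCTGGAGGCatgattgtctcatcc

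The last codons before the stop are given because a retention signal of the endoplasmic reticulum can stand there. Capitals mark the last 4 codons. In 6 of 10 members (Ces1d, Ces1e, Ces1f, Ces1g, Ces2a and Ces2e) they spell His-X-Glu-Leu, with X any amino acid. This is a retention signal of the kind found in luminal esterases. In Ces1b, Ces1c, Ces3a and Ces3b they do not spell it. Only this form was sought. Ces3a and Ces3b end in Pro-Glu-Glu-Leu, and whether that end or another signal retains these members was not tested.
Ces1b: acagaccctactgagcacAGAGAACACAAA
Ces1c: acagaccctactgaacacACAGAACACAAA
Ces1d: aggccatcccacagggaaCATGTTGAGCTC
Ces1e: aagcaactgccgacagaaCACACTGAGCTG
Ces1f: aaacaaccccagccatacCACAATGAGCTG
Ces1g: aggtcatcccatagggaaCATGTTGAACTG
Ces2a: aagggttctcaggacaagCATGCAGAGCTG
Ces2e: aaggggtctcaggagaggCACAAAGAGTTG
Ces3a: cagagaagcaggaaagttCCAGAGGAGCTC
Ces3b: cagagaagcaggaaagttCCAGAGGAGCTC

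Because reads of similar genes can be assigned to the wrong copy, the identity of the coding sequences bears on every value. Ces3a and Ces3b were the most similar pair (95.3% identity), followed by Ces1b and Ces1c (88.7%), Ces2a and Ces2e (83.3%) and Ces1d and Ces1g (81.6%). The reads were 100 bases long, and 160 of the 1614 windows of that length in Ces3a (9.91%) also occurred exactly in Ces3b. In Ces2a, 200 of 1575 windows (12.7%) occurred in the gene model Gm7208, which is no row of the table. Ces1b and Ces1c shared 24 windows with each other, of 1602 and 1563, and the other 5 members shared none with another gene. How reads that fit several places were counted is not given in the sources used here. The splits between Ces3a and Ces3b and between Ces1b and Ces1c, and the value of Ces2a, are uncertain to that extent. Ces1c had 45900 to 53358 reads per library and Ces1b 1457 to 1681, so the same number of shared reads weighs more on Ces1b.

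The library totals were 24480798 to 28691330 counted reads, and 3 reads, the least that was taken as detectable, stood for 0.105 to 0.123 CPM (read counts scaled to the size of the library), a limit that covers counting error only. Every member had at least 1457 reads in each library, so depth did not limit the comparison. Library sizes for CPM were adjusted by the TMM method, and levels of different genes are compared only in the deposited TPM values, which are also divided by gene length. Adarb1, which encodes ADAR2, had 15.7 and 19.8 CPM in HFD-WT and 6.23 and 9.55 CPM in HFD-KO livers (log2 fold change -1.17, SE 0.20, adjusted p = 0.159 by edgeR). The exons on which its remaining reads fell cannot be read from the table. In the labelled tissue, 7 of 8 hepatocyte markers were rows of the table, and their summed expression was 74288 and 74854 CPM in HFD-WT and 74448 and 89502 CPM in HFD-KO livers. Replicate 2 of HFD-KO thus held more hepatocyte marker RNA than the other three libraries, and albumin made up most of that excess.

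Ces1c, whose product is the main carboxylesterase of mouse plasma, was the most abundant member, with 1873 to 2081 TPM across the 4 libraries and rank 70 among all genes of the table. Ces3a, the liver esterase named esterase 31, followed with 1291 to 1844 TPM and rank 88. Ces1d, the triacylglycerol hydrolase that mobilises stored triglyceride for VLDL, had 495 to 786 TPM. These genes kept their order in all 4 libraries, and their ranges did not overlap.

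The middle of the order was less clear. Ces1f, a second triacylglycerol hydrolase of hepatocytes, had 379 to 455 TPM and stood apart from its neighbours on both sides. Ces1g had 142 to 233 TPM, Ces2e 125 to 181 TPM and Ces1e 126 to 143 TPM. The ranges of Ces1g and Ces2e overlapped, although Ces1g was above Ces2e within each of the 4 libraries. Ces2e and Ces1e had no common order. Ces2e was higher in both HFD-WT libraries (159 and 181 against 133 and 134 TPM). Ces1e was slightly higher in both HFD-KO libraries (142.6 and 125.9 against 140.8 and 125.2 TPM). The range of Ces1e also overlapped that of Ces3b (96.8 to 134.8 TPM). Ces2a, at 71.6 to 90.7 TPM, and Ces1b, at 53.5 to 61.9 TPM, were lowest and did not overlap each other.

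**Figure D1:**
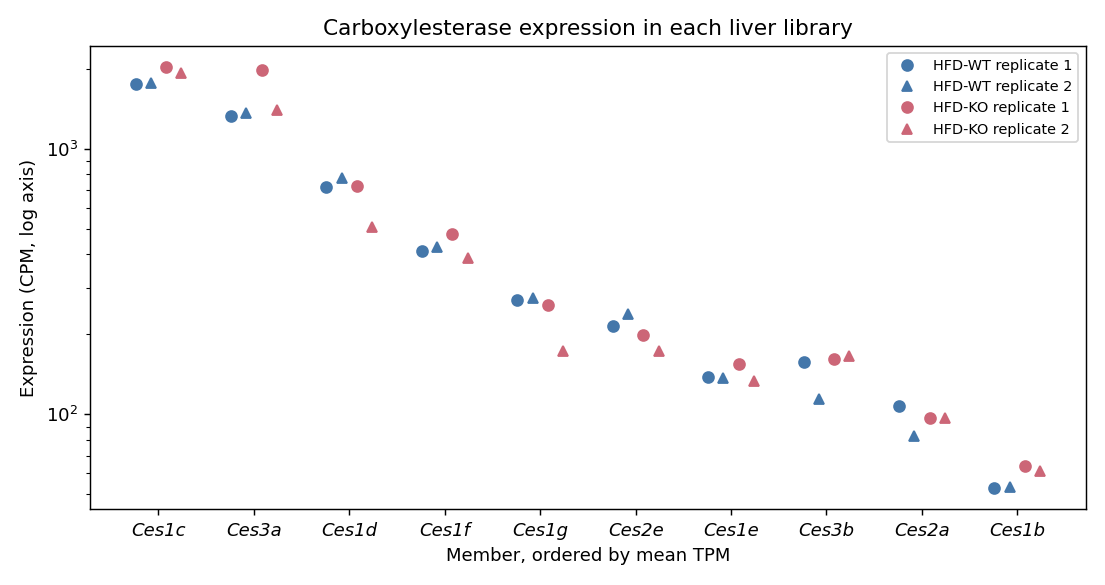
Expression of the 10 members in each liver library in CPM on a log axis, ordered by mean TPM; circles are replicate 1, triangles replicate 2, blue HFD-WT and red HFD-KO. Red points lie above blue ones for Ces1c, Ces3a, Ces3b and Ces1b, below them for Ces1g and Ces2e, and among them for the other four.

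The comparison of HFD-KO with HFD-WT asks whether the loss of ADAR2 under the HFD went with a change in the esterase equipment of the liver. At an adjusted p under 0.05 by edgeR, 0 of 10 members were higher and 0 were lower, where 0.054% and 0.0231% of the 12967 genes tested passed (0.0771% in either direction). At an unadjusted p under 0.05, Ces1b was the 1 member that was higher (4.25% of all genes tested) and Ces2e the 1 that was lower (4.73%, and 8.98% in either direction). DESeq2's Wald test also called 0 members in each direction at an adjusted p under 0.05, and at an unadjusted p under 0.05 it had Ces3a higher and Ces1g and Ces2e lower, without Ces1b. The libraries of the 2 genotypes did not overlap for 4 members that were higher in HFD-KO and 2 that were lower, against 20.5% and 20.3% of all genes tested (40.8% in either direction). The median log2 fold change of the members was 0.06 against 0.01 for all genes tested. Of the members 7 lay above 0 and 3 below, but with the library size alone as scaling, Ces1f (-0.0019) and Ces2a (-0.02) turned below 0. The 95% intervals of the log2 fold changes all lay between -0.73 and 0.71.

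Of the Ces1 genes, the pair Ces1b and Ces1c was higher in HFD-KO livers. Ces1b had 52.8 and 53.5 CPM in HFD-WT and 63.9 and 61.0 CPM in HFD-KO livers. Both HFD-KO libraries stood above both HFD-WT libraries, and the gap between the groups was wider than the difference within either. The log2 fold change was 0.23 (SE 0.079, 95% interval 0.05 to 0.42, unadjusted p = 0.021, adjusted p = 0.456 by edgeR), an increase of 17.5% that failed the correction for all genes tested. Ces1c had 1746 and 1771 CPM in HFD-WT and 2027 and 1922 CPM in HFD-KO livers. Again the groups did not overlap, with a log2 fold change of 0.17 (SE 0.10, 95% interval -0.07 to 0.41, adjusted p = 0.682 by edgeR).

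These neighbours kept a nearly fixed proportion. The TPM ratio of Ces1c to Ces1b was 35.0 in both libraries of HFD-WT, and 33.6 and 33.4 in those of HFD-KO. Whether reads that fit both genes had a part in this proportion was not tested. The promoters of Ces1b and Ces1c are given as sequence only, and whether they have a part in it was not tested. The RefSeq table (GRCm38.p6) held a promoter for 7 of 10 members, all but Ces1d, Ces1f and Ces3a. The 250 bases before the start of Ces1b (chr8:93079941-93080190, minus strand, 1 of 2 starts listed for this gene) and of Ces1c (chr8:93131284-93131533, minus strand) were 76.2% identical, whereas the window of the other start of Ces1b (chr8:93080018-93080267) was 43.1% identical to that of Ces1c.
Ces1b: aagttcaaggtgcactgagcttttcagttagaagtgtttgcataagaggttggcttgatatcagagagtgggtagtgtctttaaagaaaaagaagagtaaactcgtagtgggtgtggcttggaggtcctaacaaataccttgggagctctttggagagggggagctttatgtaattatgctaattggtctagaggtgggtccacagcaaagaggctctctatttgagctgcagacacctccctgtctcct
Ces1c: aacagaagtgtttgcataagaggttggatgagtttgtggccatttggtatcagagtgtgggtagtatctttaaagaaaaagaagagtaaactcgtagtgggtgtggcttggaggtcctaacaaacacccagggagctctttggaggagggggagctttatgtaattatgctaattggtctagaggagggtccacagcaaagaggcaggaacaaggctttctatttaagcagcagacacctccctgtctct

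Between other pairs of windows of different members with a listed promoter, identity was at most 53.7%. On both strands of the promoters of members, TATAAA was found for Ces1g and Ces3b (12.4% of all 32851 promoters), AGGTCA, a nuclear receptor half-site, for Ces2a (14.02%) and GTTAAT, an HNF1 half-site, for Ces3b (6.43%). TTGCNNCAA, a C/EBP site (1.74%), and CACGTG, an E-box (6.02%), were found in none of them. None of these letters occurs in the Ces1b and Ces1c windows printed here, which says only that they are not in these windows.

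Ces1d and Ces1g, lipid hydrolases that have both been studied in fatty liver, were lower on average in HFD-KO livers, but mostly in 1 library. Ces1d had 718 and 773 CPM in HFD-WT and 724 and 507 CPM in HFD-KO livers. Replicate 1 of HFD-KO fell between the HFD-WT values, so the groups overlapped (log2 fold change -0.28, SE 0.16, 95% interval -0.65 to 0.10, adjusted p = 0.668 by edgeR). Ces1g, which acts on hepatic triglyceride and is also known as esterase-x, had 269 and 273 CPM in HFD-WT and 257 and 173 CPM in HFD-KO livers. Both HFD-KO values were lower, the nearer of them by 0.07 on the log2 scale, and the log2 fold change of -0.33 did not pass (SE 0.17, 95% interval -0.73 to 0.06, adjusted p = 0.627 by edgeR).

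Leaving out 1 HFD-KO library decided these calls. Without replicate 1 of HFD-KO, the log2 fold change was -0.55 for Ces1d (adjusted p = 0.000198 by edgeR) and -0.65 for Ces1g (adjusted p = 0.000024). Without replicate 2 of HFD-KO it was -0.04 for Ces1d (adjusted p = 0.943) and -0.08 for Ces1g (adjusted p = 0.874), and 1.39% of all 13357 genes tested were called lower. In each of these fits the single HFD-KO library is assumed to vary as the HFD-WT pair does, and without replicate 1 of HFD-KO 2.48% of all 13272 genes tested were called lower and 2.83% higher. The TPM ratio of Ces1d to Ces1g was 3.18, 3.37, 3.36 and 3.50 in HFD-WT replicates 1 and 2 and HFD-KO replicates 1 and 2. The ratio thus varied far less than the expression of either gene.

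Ces1e and Ces1f were not set apart by genotype. Ces1e, also named egasyn, the esterase that holds beta-glucuronidase in the endoplasmic reticulum, had 138 and 137 CPM in HFD-WT and 155 and 133 CPM in HFD-KO livers (log2 fold change 0.07, 95% interval -0.15 to 0.29, adjusted p = 0.861 by edgeR). Ces1f had 413 and 427 CPM in HFD-WT and 478 and 387 CPM in HFD-KO livers (log2 fold change 0.04, 95% interval -0.23 to 0.31, adjusted p = 0.938 by edgeR). In both genes the HFD-KO libraries enclosed the HFD-WT values, and without replicate 1 of HFD-KO the sign turned, to -0.04 for Ces1e and -0.12 for Ces1f.

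The Ces2 genes encode esterases that favour drug esters with a small acyl group, and some of them cleave di- and triglycerides. Ces2e had 216 and 240 CPM in HFD-WT and 200 and 173 CPM in HFD-KO livers. The HFD-KO libraries were both lower, with a log2 fold change of -0.29 (SE 0.10, 95% interval -0.53 to -0.05, unadjusted p = 0.024, adjusted p = 0.475 by edgeR), a difference that failed the correction. Without replicate 1 of HFD-KO it was -0.40 and passed (adjusted p = 0.0122 by edgeR), and without replicate 2 it was -0.19 (adjusted p = 0.481). Ces2a had 107.5 and 82.8 CPM in HFD-WT and 96.9 and 96.6 CPM in HFD-KO livers. The HFD-KO values were almost equal and lay between the HFD-WT values, with a log2 fold change of 0.02 (SE 0.12, 95% interval -0.27 to 0.31, adjusted p = 0.973 by edgeR) that became -0.15 without replicate 2 of HFD-WT. The TPM ratio of Ces2e to Ces2a was 1.75 and 2.53 in HFD-WT and 1.80 and 1.56 in HFD-KO livers.

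Both Ces3 genes were higher in both HFD-KO libraries, by narrow margins. Ces3a had 1327 and 1362 CPM in HFD-WT and 1981 and 1402 CPM in HFD-KO livers. Replicate 1 of HFD-KO was far above the rest, whereas replicate 2 exceeded the higher HFD-WT value by 0.04 on the log2 scale. The log2 fold change was 0.33 (SE 0.16, 95% interval -0.05 to 0.71, adjusted p = 0.617 by edgeR). It was 0.56 without replicate 2 of HFD-KO (adjusted p = 0.00012 by edgeR, where 1.69% of all 13357 genes tested were called higher) and 0.06 without replicate 1 (adjusted p = 0.813). Ces3b had 157 and 114 CPM in HFD-WT and 162 and 166 CPM in HFD-KO livers, so that the lower value of HFD-WT replicate 2 made most of the difference. The log2 fold change of Ces3b was 0.27 (SE 0.14, 95% interval -0.06 to 0.61, adjusted p = 0.633 by edgeR), and 0.06 without replicate 2 of HFD-WT.

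The most similar pair of genes did not vary together. The TPM ratio of Ces3a to Ces3b was 9.92 in replicate 1 and 14.03 in replicate 2 of HFD-WT, and 14.4 and 9.95 in replicates 1 and 2 of HFD-KO. High and low ratios thus occurred in both genotypes. Whether reads shared by these genes had a part in this was not tested.

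**Figure D2:**
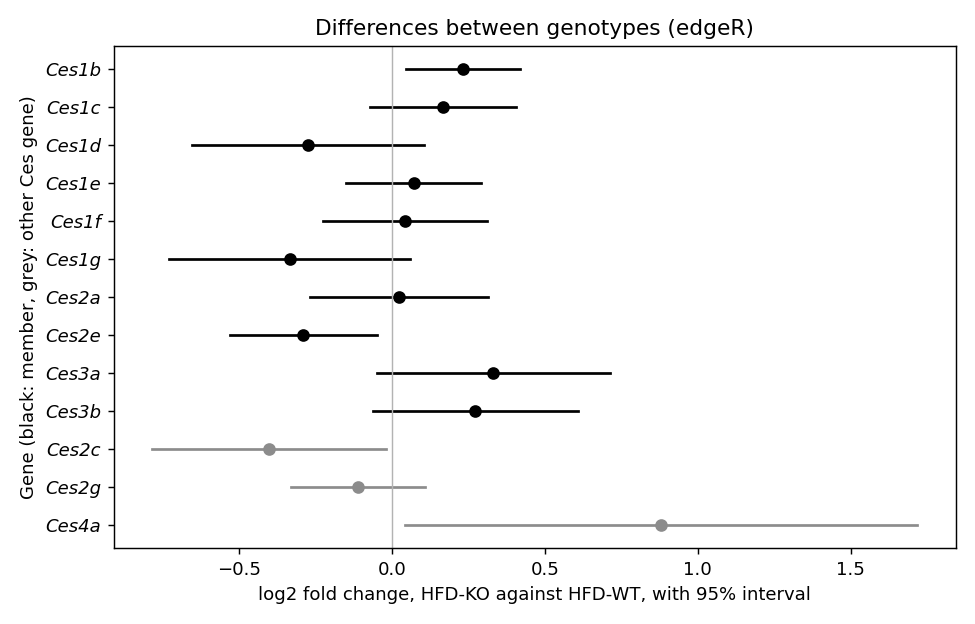
Log2 fold change between genotypes (above 0, higher in HFD-KO) with its 95% interval from edgeR (2 libraries per genotype) for the 10 members, in black, and for the other Ces genes with at least 100 reads, in grey. The intervals of Ces1b, Ces2e, Ces2c and Ces4a exclude 0, and each of these genes had an adjusted p above 0.4.

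**Figure D3:**
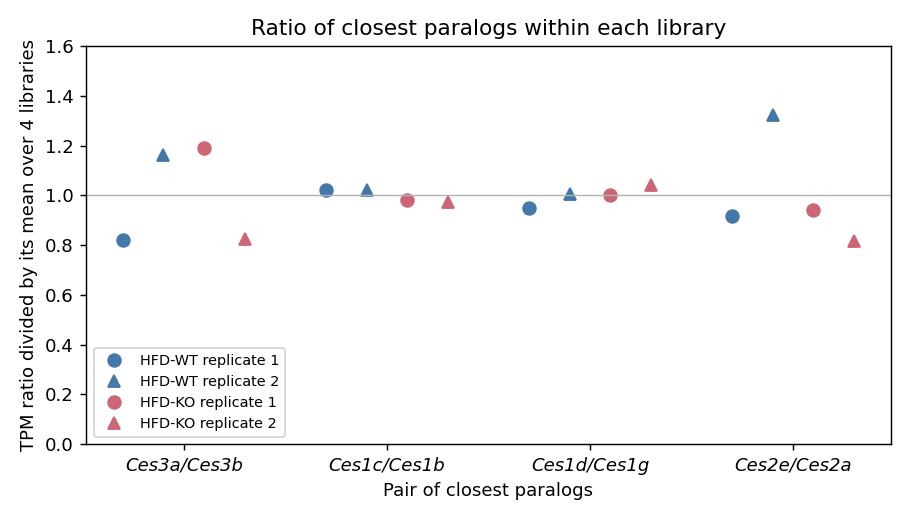
TPM ratio of the closest paralogs in each library, divided by its mean over the 4 libraries; circles are replicate 1, triangles replicate 2, blue HFD-WT and red HFD-KO. Ces1c/Ces1b and Ces1d/Ces1g stay near 1, while Ces3a/Ces3b and Ces2e/Ces2a spread within genotypes.

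Summed over the 10 members, carboxylesterase mRNA was 5078 and 5300 TPM in HFD-WT and 5825 and 4910 TPM in HFD-KO livers, or 0.491% to 0.583% of the table. The means were 5189 ± 156 TPM (SD, n = 2) and 5368 ± 647 TPM (SD, n = 2), a ratio of 1.03. The HFD-KO libraries enclosed the HFD-WT values, so the total was not set apart by genotype.

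The make-up of that total was described by the share of each member. Ces1c and Ces3a together made up 62.3% and 62.4% of it in HFD-WT and 67.4% and 68.6% in HFD-KO livers. The share of Ces3a was 25.4% and 25.6% in HFD-WT against 31.7% and 27.3% in HFD-KO, and that of Ces1b, the least abundant member, 1.05% and 1.05% against 1.06% and 1.24%. The share of Ces1d was 14.04% and 14.8% in HFD-WT against 11.8% and 10.1% in HFD-KO. Ces1f (8.09% and 8.21% against 7.81% and 7.71%), Ces1g (4.42% and 4.40% against 3.52% and 2.88%) and Ces2e (3.13% and 3.42% against 2.42% and 2.55%) also took smaller shares in both HFD-KO libraries. The shares of Ces1c, Ces1e, Ces2a and Ces3b overlapped between genotypes. Shares of a total are bound to each other, since one that grows makes others shrink, and with 2 libraries against 2 an exact permutation test cannot give a p below 0.333, so no test was made. The 4 members with smaller shares all carry the codons of the His-X-Glu-Leu signal. The 2 with larger shares do not, although Ces3a ends in the similar Pro-Glu-Glu-Leu. Among the members whose shares overlapped, Ces1e and Ces2a carry the His-X-Glu-Leu signal and Ces1c and Ces3b lack it. Of the members with smaller shares, Ces1d and Ces1f overlapped between genotypes in CPM. For 40.8% of all genes tested the genotypes did not overlap in CPM, in either direction. A link between the signal and genotype was not tested.

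By family, the Ces1 genes held 67.1% and 67.8% of the total in HFD-WT and 62.4% and 65.8% in HFD-KO livers, the Ces2 genes 4.92% and 4.77% against 3.76% and 4.18%, and the Ces3 genes 28.0% and 27.4% against 33.9% and 30.1%.

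**Figure D4:**
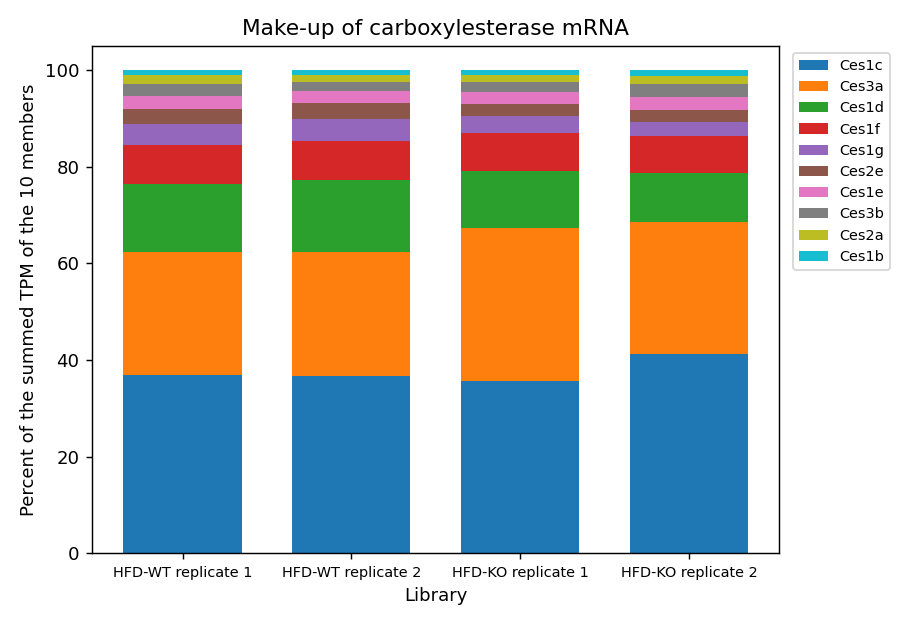
Percent of the summed TPM of the 10 members taken by each member, in each library. Ces1c (bottom, blue) and Ces3a (orange) together reach 62.3% and 62.4% in HFD-WT and 67.4% and 68.6% in HFD-KO livers, and Ces1d (green) is narrower in the latter.

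The replicates of HFD-KO differed from each other more than those of HFD-WT for 8 of 10 members, and for 58.1% of the 7622 tested genes with a mean of at least 10 CPM. From replicate 1 to replicate 2 of HFD-KO the log2 difference was -0.57 for Ces1g, -0.51 for Ces1d, -0.50 for Ces3a and -0.30 for Ces1f. For Ces1e it was -0.22 and for Ces2e -0.21, and for the other four members it was at most 0.08 in size. Replicate 2 of HFD-KO was thus lower than replicate 1 for 9 of 10 members, where 47.1% of the same 7622 genes were lower, and Ces3b was the exception (0.03). The median size of the difference was 0.21 for members against 0.11 for those 7622 genes. In the HFD-WT pair it was 0.04 against 0.09, with Ces3b (-0.46) and Ces2a (-0.38) as the members that differed most.

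For Ces1d, Ces1e, Ces1f, Ces1g and Ces3a, 5 of 10 members, the HFD-KO replicates differed by more than the genotypes did, a share no larger than the 57.6% of the 7622 genes for which this held. The HFD-KO library that was lower in these genes was the one with the higher hepatocyte marker sum, and its part in the result was not tested. In whole liver, fewer cells of a type and less RNA per cell cannot be told apart.

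**Figure D5:**
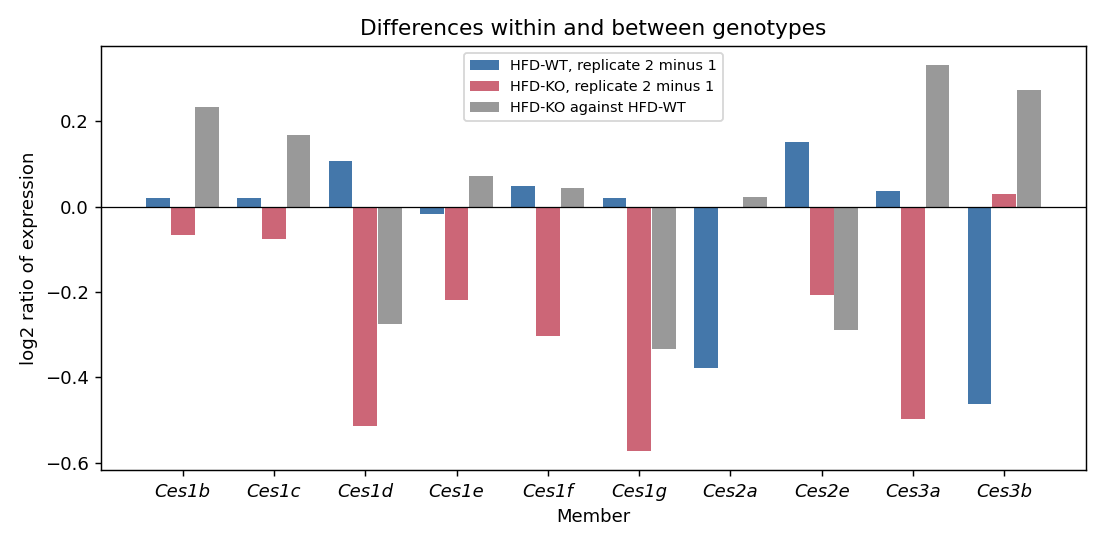
Log2 ratio of expression for each member between the HFD-WT replicates (blue), between the HFD-KO replicates (red) and between genotypes (grey). The red bars of Ces1d, Ces1g and Ces3a reach from -0.50 to -0.57 and are longer than the grey bars of the same genes.

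Markers of other cells also differed between the libraries. Over all genes tested, 4.25% were higher and 4.73% lower in HFD-KO at an unadjusted p under 0.05 by edgeR. Of 14 macrophage and Kupffer cell markers, 9 were lower in HFD-KO at an unadjusted p under 0.05 by edgeR and 0 at an adjusted p under 0.05, with a summed expression of 560 to 698 CPM in HFD-WT and 431 to 475 CPM in HFD-KO livers. Stellate cell markers summed to 526 to 586 CPM against 366 to 476 CPM, with 5 of 10 lower at an unadjusted p under 0.05, and cholangiocyte markers to 72.2 to 91.2 CPM against 50.6 to 60.0 CPM, with 1 of 6 lower. Red blood cell markers, at 600 to 757 CPM against 811 to 1146 CPM, had 3 of 5 higher. Endothelial markers (381 to 420 CPM against 376.5 to 377.5 CPM, 1 of 10 lower) differed less. Lymphocyte markers stood out in replicate 1 of HFD-KO, at 21.2 CPM against 5.23 to 6.03 CPM in the other three libraries, with 1 of 8 higher. Pancreas and gut epithelium markers overlapped at 135 to 136 CPM and 129 to 139 CPM, with Prss2 at 0 reads.

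The adipocyte list summed to 166 to 170 CPM in HFD-WT and 96.6 to 158 CPM in HFD-KO livers, with 1 of 4 tested genes higher and 1 lower. Fat tissue also expresses Ces1d and Ces1f. On the list, Lep had 0 reads and Adipoq, Plin1 and Retn were at most 0.152 CPM in any library. The other members of the list, which are not limited to fat cells, were Cidec at 50.9 to 106.0 CPM, Cidea at 30.7 to 55.8 CPM, Fabp4 at 9.72 to 27.3 CPM and Cfd at 2.04 to 7.58 CPM. Cidec was lower and Cfd higher in both HFD-KO libraries, and Cidea and Fabp4 overlapped between genotypes. The part of these lists in the values of the members was not tested.

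The other carboxylesterase genes of the table were lower than every member, with at most 35.8 TPM for Ces2c and 33.4 TPM for Ces2g in any library, against at least 53.5 TPM for Ces1b. Ces2c, a lipase of the Ces2 cluster, had 31.1 and 34.6 CPM in HFD-WT and 29.4 and 20.2 CPM in HFD-KO livers. It was lower in both HFD-KO libraries, with a log2 fold change of -0.40 (SE 0.16, unadjusted p = 0.042, adjusted p = 0.529 by edgeR), and without replicate 1 of HFD-KO it was -0.70 (adjusted p = 0.000164) and without replicate 2 -0.16 (adjusted p = 0.695). Ces2g had 42.6 and 46.8 CPM against 43.3 and 39.4 CPM and overlapped (log2 fold change -0.11, SE 0.094, adjusted p = 0.766 by edgeR). Ces4a, with 103 reads in all, had 0.794 and 0.582 CPM in HFD-WT and 1.33 and 1.21 CPM in HFD-KO livers (log2 fold change 0.88, SE 0.36, unadjusted p = 0.042, adjusted p = 0.529 by edgeR). Ces1a, Ces1h, Ces2b, Ces2f and Ces2h had fewer than 100 reads, and Ces5a had 0.

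Around the family, 3 lists of genes were examined in the same fit, and none held a gene at an adjusted p under 0.05. Of 40 tested ester and lipid hydrolases outside the family, 3 were higher and 2 lower at an unadjusted p under 0.05, with a median log2 fold change of 0.03. At that threshold 4.25% of all genes tested were higher and 4.73% lower. Lipc, the hepatic lipase, had 96.6 and 89.3 CPM in HFD-WT and 122.8 and 112.5 CPM in HFD-KO livers, the smallest p of that list (log2 fold change 0.34, SE 0.088, adjusted p = 0.332 by edgeR). Siae, a sialic acid esterase, was at -0.27 (adjusted p = 0.372) and Abhd17a, a depalmitoylase, at 0.27 (adjusted p = 0.473). Neither direction prevailed in this list.

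The listed genes of triglyceride transfer and VLDL assembly, not all of which move triglyceride into VLDL, showed no call with all 4 libraries. Of 18 tested, 0 had an unadjusted p under 0.05 in either direction, and their median log2 fold change was 0.01. Tm6sf2, a factor of VLDL lipidation, had the smallest p (log2 fold change 0.31, adjusted p = 0.567 by edgeR, and 0.50 with adjusted p = 0.0103 without replicate 1 of HFD-KO), followed by Fitm2 (-0.16, adjusted p = 0.608) and the chaperone Pdia3 (0.15, adjusted p = 0.682).

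Among 28 transcription factors of drug and lipid metabolism, 3 were higher (4.25% of all genes tested) and 1 lower (4.73%) at an unadjusted p under 0.05. Their median log2 fold change was 0.07. Nr1d1, the clock repressor REV-ERB alpha, had 82.8 and 73.4 CPM in HFD-WT and 116.5 and 100.2 CPM in HFD-KO livers (log2 fold change 0.47, SE 0.11, adjusted p = 0.257 by edgeR). Nr1i2, the pregnane X receptor known to regulate carboxylesterase genes, had 107.7 and 114.3 CPM in HFD-WT and 81.0 and 90.1 CPM in HFD-KO livers (log2 fold change -0.38, SE 0.089, adjusted p = 0.271 by edgeR). Mlxipl, the carbohydrate response factor ChREBP, was at 0.26 (adjusted p = 0.493 by edgeR). Nr1d1 and Nr1i2 were thus set apart between the genotypes without passing the correction. Of the 28 factors, 8 were higher and 3 lower in both HFD-KO libraries, against 20.5% and 20.3% of all genes tested. Nr1i3, another receptor of the list, was also set apart, in the direction opposite to Nr1i2. It had 398 and 365 CPM in HFD-WT and 485 and 403 CPM in HFD-KO livers (log2 fold change 0.22, adjusted p = 0.631 by edgeR). Without replicate 2 of HFD-KO, the log2 fold change was 0.40 for Lipc, -0.46 for Nr1i2, 0.35 for Nr1i3, 0.36 for Mlxipl and 0.58 for Nr1d1. In the same fit it was -0.65 for Foxa2, 0.43 for Srebf2 and 0.36 for the hydrolase Pon1. Without replicate 1 of HFD-KO the log2 fold change was 0.36 for Nr1d1, 0.42 for Nr3c1, and 0.57 and -0.42 for the hydrolases Lpl and Ephx1. Each of these fits rests on 1 HFD-KO library.

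The pattern of Ces1b, the member with the smallest p, was compared with 4916 other genes by the Euclidean distance of the centred log2 CPM over the 4 libraries. The closest were Mrpl52 (distance 0.020), Map3k10 (0.022), Hnrnpdl (0.022), Katnip (0.027) and Irf3 (0.032), all with a log2 fold change between 0.22 and 0.25. With 4 libraries, likeness of this kind is a description only.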

How the data were processed

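The authors extracted liver RNA with TRIzol, made directional libraries (of poly(A) RNA per the labels), sequenced 100-base paired ends on a DNBSEQ-G400RS, aligned them with the MGI tool and counted genes in Partek Genomics Suite with GENCODE. Versions and the use of strand are not given in the sources used here. The methods name mm10, while the table's positions are those of GRCm39. The deposited read counts are whole and not normalized, and only they were tested. The deposited TPM and RPKM values are divided by length by the authors, and the deposited CPM columns, a score on another scale, were not used.

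Counts were fitted in edgeR 4.0.16 (R 4.3.3) by the two-sided quasi-likelihood test after filterByExpr and TMM, with Benjamini-Hochberg adjustment over 12967 genes. DESeq2 1.42.0 was an alternative. Coding sequences were compared in Biopython 1.88. Groups and replicate numbers come from the labels, which state no pairing. Members, gene lists and tests were chosen with earlier results of these data known, and the lists were compiled by hand. Named genes are all members, other Ces genes with at least 100 reads, the 3 smallest p of each list, and the 5 genes most like the member with the smallest p. Nr1i3 was named beside Nr1i2, and Pon1, Foxa2 and Srebf2 for their change without replicate 2 of HFD-KO. Lpl, Ephx1 and Nr3c1 were named for their change without replicate 1 of HFD-KO.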

Additional observations from a re-analysis of the deposited data

How the results depend on the processing

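Ces1b, Ces1c, Ces2e and Ces3b kept their direction under all 10 alternatives, as did Ces1d, Ces1g and Ces3a. Of 100 alternative values of the members, 91 kept direction and side of the threshold, 4 passed it (given above) and 5 reversed: Ces1e (-0.042) and Ces1f (-0.12) without replicate 1 of HFD-KO, Ces2a (-0.15) without replicate 2 of HFD-WT, and Ces1f (-0.0019) and Ces2a (-0.021) with the library size alone, a scaling that moved the median gene by -0.05. Leaving out 1 library at a time gave -0.042 to 0.18 for Ces1e, -0.12 to 0.19 for Ces1f and -0.15 to 0.22 for Ces2a. Each of these fits leaves 1 library in a genotype, so calls of members in them are not counted here. The median of the members ranged from -0.01 to 0.18 and the ratio of the summed TPM from 0.946 to 1.12. At an unadjusted p under 0.05, 0 members were higher with the library size alone and 3 with no filter, and 2 were lower with no filter and under DESeq2's Wald test. With the replicate block 2 were lower (Ces1g beside Ces2e), and the block changed no other call of a member. Deviations of same-numbered libraries from their group means had r = -0.09. With 2 libraries per genotype this value is the same for both numbers by construction, so it cannot settle whether the libraries were paired.

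Of the listed genes around the family, with the other Ces genes included, 7 were higher and 4 lower at an unadjusted p under 0.05. They were 2 and 9 with the library size alone, 4 higher with the replicate block and also with DESeq2's Wald test, 7 lower with no filter, and 2 to 12 higher and 1 to 13 lower without 1 library. At an adjusted p under 0.05 there was 1, Nr1d1, with no filter (0.0482) and with DESeq2's Wald test (0.0389), and 0 to 8 without 1 library. The causes were not tested. With 2 libraries per genotype, the spread between libraries limited the comparison.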
